A study of Mus musculus with 66 samples.

Results

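Atf2, Jund, E2f4, Etv6, Nfkb1, Sp1 and Lcor are sequence-specific transcription factors that were followed here from RNA to chromatin in mouse small intestinal organoids. Every row of the transcript table whose gene symbol was one of these 7 names was taken, which gave 8 transcripts of 7 genes out of 9481 transcripts with 8978 symbols. Lcor had 2 rows and the other factors had 1 each. Of these factors, 6 are among those the study named when it ranked DNA motifs at the regions that differed between cultures. Jund is not among them and is named by the study only in a comparison of protein with mRNA, so the common label does not hold for Jund. The study kept a motif only where the protein of a factor that binds it differed between these same cultures, so a difference of these factors between cultures is not independent of how they were picked.

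The 7 factors belong to 6 families that read different DNA letters. Atf2 and Jund are basic leucine zipper (bZIP) proteins, which bind DNA as pairs. Atf2 is activated by stress kinases of the p38 and Jnk branches and binds the cAMP response element, and Jund is the Jun protein of the AP-1 complex that is often abundant in resting cells. E2f4 works with DP partners and pocket proteins to hold cell cycle genes in check outside the cycle. Etv6 is a repressor of the ETS family. Nfkb1 encodes the p105 precursor, which is processed to the p50 subunit of NF-kB. Sp1 binds GC boxes at the promoters of many broadly expressed genes, and Lcor is a corepressor recruited by nuclear receptors.

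All organoids shared a GFP and diphtheria toxin receptor allele at the Lgr5 locus (Lgr5-GFP-DTR), which marks intestinal stem cells. ENR organoids were grown with epidermal growth factor, Noggin and R-Spondin-1, the usual medium. CV organoids received the same medium with 3 µM CHIR99021, which activates Wnt signalling, and 1 mM valproic acid, an inhibitor of histone deacetylases, and carry the label of a stem cell enriched culture. EN organoids were grown without R-Spondin-1, a Wnt enhancer, and carry the label of a stem cell depleted culture. Per the study's methods, CV organoids spent longer in their medium than EN organoids did, so medium and time cannot be told apart between them. RNA-seq and ATAC-seq, a measure of open chromatin, had 4 libraries per culture, each histone mark had 3 libraries per culture, and Hnf4g chromatin immunoprecipitation had 1. No label says that libraries of a culture came from separate organoid lines or animals, so p-values measure the spread between these libraries, which may be technical.

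RNA libraries held 5630977 to 8859757 expected counts. The labels were checked against marker genes. All 5 stem cell markers were lower in EN than in CV and than in ENR, and all 7 enterocyte markers were higher in EN than in both. CV did not exceed ENR in stem cell markers, of which 4 of 5 were lower in CV. Their summed level was 457 to 518 CPM (counts-per-million after TMM scaling) in CV, 1708 to 1851 in ENR and 36.0 to 40.1 in EN. The median log2 difference of the 5 from ENR to CV was -0.52, smaller than that of the sums. With TPM, spike-in scaling and the deposited copies, scalings described below, 2, 2 and 1 were called lower. By imaging of the Lgr5 reporter, the study found stem cells to be the main cell type in CV. It also reported stem cell markers as enriched in CV and depleted in EN, in protein and in mRNA. Markers of goblet cells summed to 304 to 326, 718 to 781 and 1930 to 2275 CPM in CV, ENR and EN, and enteroendocrine and tuft markers to 24.7 to 38.3, 518 to 536 and 1340 to 1820. All 3 goblet and all 5 enteroendocrine and tuft markers were called higher in EN than in ENR, and 2 and 4 with spike-in scaling. The study, by contrast, named Muc2, Dclk1 and Reg4 among markers without enrichment in EN over ENR. Paneth markers summed to 2326 to 2616, 3006 to 3152 and 1058 to 1269 CPM. Proliferation markers summed to 1020 to 1064, 1395 to 1460 and 157 to 166 CPM, and 6 listed of 7 markers of cells outside the epithelium to 5.42 to 8.49, 8.31 to 9.98 and 23.7 to 29.5, most of it Vim, with Acta2, Col1a1 and Col1a2 each under 1 CPM on average in every culture. In bulk organoids, fewer cells of a type and less RNA per cell cannot be told apart, and the part of cell composition in the values below was not tested.

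The DNA of the start sites shows which letters lie under the chromatin signals described further on. RefSeq promoter sequences (build GRCm38.p6, 250 bases before to 50 after the start) matched 5 of the 7 factors, Atf2, Etv6, Jund, Sp1 and Lcor. Each of these 5 sequences occurs once in the mm9 genome, the build of the chromatin files. The sequences of Atf2, Etv6, Sp1 and Lcor lie wholly inside the open region at that gene's start site. The Jund sequence lies before its region and shares no base with it, so it is not shown. The promoters of Sp1 and Atf2 are printed because their open regions differed between cultures, and that of Lcor because its open region did not pass the test, with GC boxes (GGGCGG on either strand) in capitals.
Sp1 promoter, chr15:102406066-102406365, plus strand, GRCm38.p6: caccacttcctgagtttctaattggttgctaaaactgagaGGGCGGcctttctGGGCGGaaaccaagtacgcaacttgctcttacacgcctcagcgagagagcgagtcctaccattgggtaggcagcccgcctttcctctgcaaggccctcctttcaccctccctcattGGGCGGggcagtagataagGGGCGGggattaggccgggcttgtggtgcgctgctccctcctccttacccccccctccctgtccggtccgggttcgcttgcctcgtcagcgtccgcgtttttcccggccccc
Atf2 promoter, chr2:73892590-73892889, minus strand, GRCm38.p6: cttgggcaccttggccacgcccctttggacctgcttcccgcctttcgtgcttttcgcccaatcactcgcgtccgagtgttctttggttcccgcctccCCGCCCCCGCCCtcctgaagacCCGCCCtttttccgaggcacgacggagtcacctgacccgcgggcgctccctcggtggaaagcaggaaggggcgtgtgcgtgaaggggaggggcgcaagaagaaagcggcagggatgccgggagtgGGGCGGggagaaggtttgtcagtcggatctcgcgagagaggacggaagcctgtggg
Lcor promoter, chr19:41482432-41482731, plus strand, GRCm38.p6: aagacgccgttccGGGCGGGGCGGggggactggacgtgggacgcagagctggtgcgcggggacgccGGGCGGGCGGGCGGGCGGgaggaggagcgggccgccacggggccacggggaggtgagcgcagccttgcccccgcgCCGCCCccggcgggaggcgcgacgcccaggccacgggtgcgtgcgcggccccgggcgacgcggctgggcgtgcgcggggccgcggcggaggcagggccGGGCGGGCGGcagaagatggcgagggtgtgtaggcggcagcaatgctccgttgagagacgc
The Sp1 and Atf2 promoters hold 4 GC boxes each, the Lcor promoter holds 9, some of them overlapping, and the Etv6 promoter 1. A GC box was present in 35.7% of 32851 promoters of the same length. No other searched motif occurred in these promoters, and no searched motif overlapped another. The other letters were TGACGTCA (cAMP response element, 1.79% of promoters), TGANTCA (AP-1, 7.81%), TTTNGCGC (E2F, 1.38%), CCGGAAG (ETS, 8.86%), GGGANTTTC (NF-kB, 1.11%) and CAAAGTCCA (Hnf4, 0.475%), each on both strands.

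Transcript levels of the factors moved in different directions between cultures. From CV to EN, Jund, Nfkb1, Sp1 and both Lcor transcripts rose and E2f4 and Etv6 fell, 7 of 8 transcripts at an adjusted p under 0.01. Of all 9288 transcripts tested in that comparison, 76.4% were called, 35.2% higher and 41.2% lower in EN. Between ENR and EN 7 of 8 were called, 3 higher and 4 lower in EN, against 72.7% of all transcripts, 35.5% higher and 37.2% lower. Between ENR and CV 5 of 8 were called, 1 higher and 4 lower in CV, against 60.0% of all, 30.2% higher and 29.8% lower. The median size of the change from CV to EN was 0.46 on the log2 scale among the 8 transcripts and 0.72 among all transcripts.

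**Figure D1:**
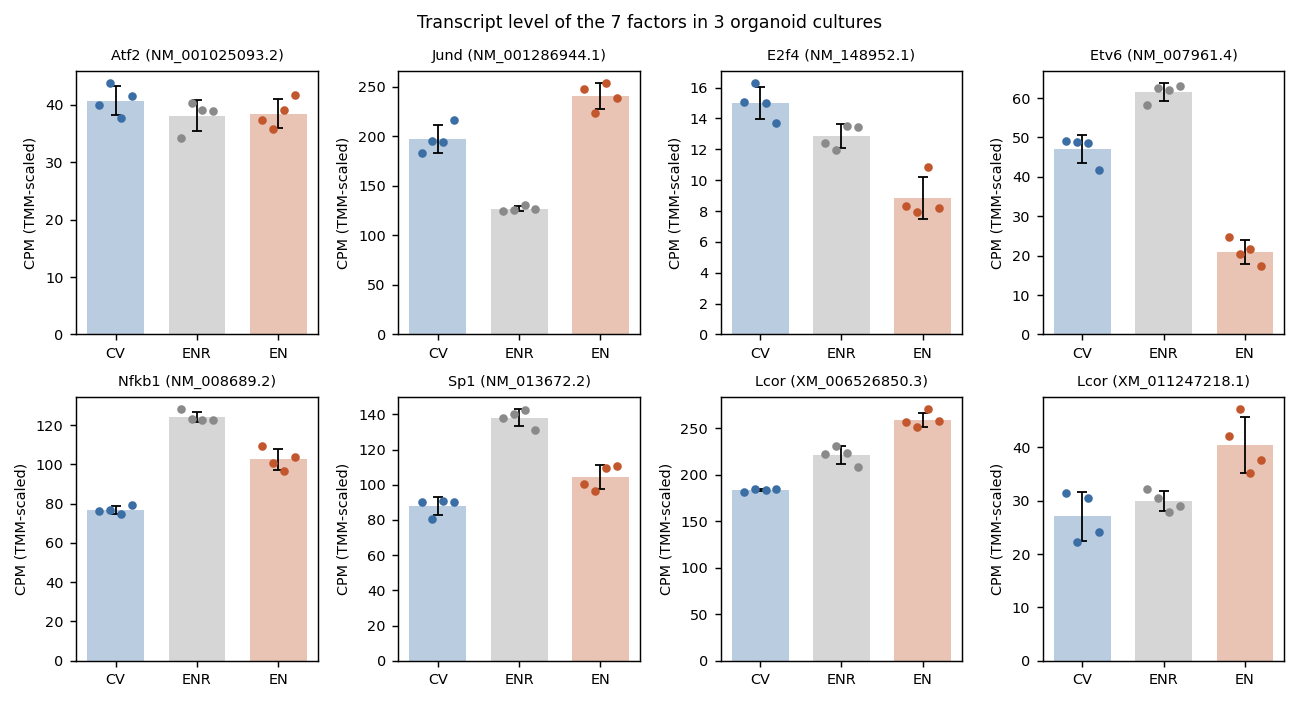
Level of each of the 8 transcripts (vertical axis, CPM after TMM scaling) in CV, ENR and EN organoids. Points are the 4 libraries of a culture, bars their mean and error bars the SD. Etv6 and E2f4 are lowest in EN, Nfkb1 and Sp1 highest in ENR, Jund lowest in ENR, and Lcor XM_006526850.3 is lowest in CV and highest in EN, all under TMM scaling. Some of these orders turn under other scalings.

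These directions depend on how libraries were scaled to each other. Counts scaled by TMM left the median of all transcripts at -0.08 (log2) from CV to EN and -0.01 from ENR to EN. The deposited mRNA copies, scaled by the authors to spike-in RNA, put that median at 0.62 and 0.88, a scaling of the counts to the same spike-in rows put it at -0.49 and -0.52, and TPM put it at -0.34 and -0.14. Scaling the counts to spike-in rows shifts all transcripts of a library alike, so values relative to that median hardly depend on it, by construction. The deposited copies do not shift all transcripts alike, so relative values can differ there. Both TPM and the copies were also tested as log2(value + 1), which shrinks differences of transcripts with low values. For Etv6 the relative values from CV to EN were -1.08 by TMM and -1.03 with the copies, and for Jund 0.36 and 0.54. For Lcor XM_011247218.1 they were 0.65 and 0.33, at a mean of 1.38 copies in CV and 3.53 in EN. E2f4 and Etv6 had means of 4.68 to 8.26 copies over the 3 cultures. Calls over all transcripts moved too, from 3267 higher and 3829 lower from CV to EN by TMM to 4418 and 1258 with the copies and 1473 and 4292 with spike-in scaling, and from 3301 and 3455 from ENR to EN to 5497 and 789 and to 1094 and 4275. In absolute terms some signs turned, and each is given beside its factor.

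**Figure D2:**
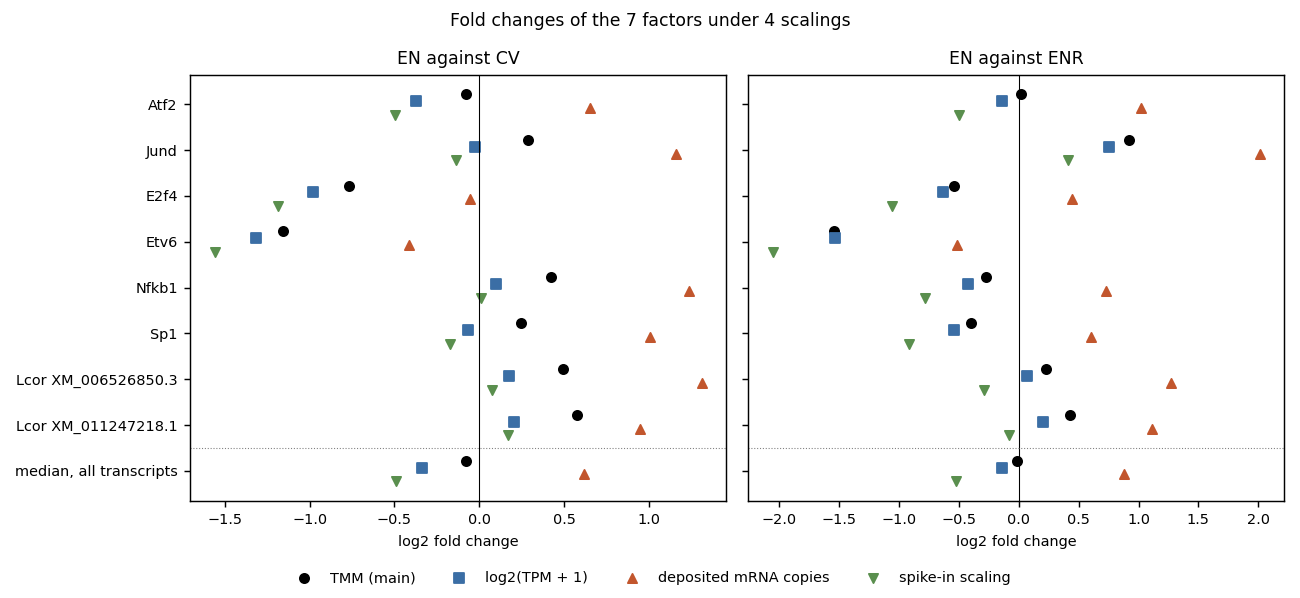
Log2 fold change (horizontal axis) of the 8 transcripts and of the median of all transcripts from CV to EN (left) and from ENR to EN (right) under 4 scalings. The deposited copies lie to the right of TMM and spike-in scaling to the left for every transcript, and the median of all transcripts moves with them, from -0.49 to 0.62 in the left panel.

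Atf2 was the factor whose transcript did not pass the test in any comparison. Its level was 40.0, 43.8, 37.6 and 41.6 CPM in the 4 CV libraries, 34.2, 40.4, 39.0 and 38.9 in ENR and 37.4, 35.8, 39.1 and 41.7 in EN. All 3 cultures overlapped. The log2 fold change was -0.08 ± 0.07 (SE) from CV to EN (edgeR, adjusted p = 0.31) and 0.02 ± 0.07 from ENR to EN (edgeR, adjusted p = 0.81). With the deposited copies, the log2 value from CV to EN turned to 0.65 and that from ENR to EN was 1.02, of which only the latter passed the test. With TPM the values from CV to EN and from ENR to CV were -0.37 and 0.24 and passed it.

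Jund, the other bZIP factor, was lowest in ENR. It measured 183, 195, 194 and 216 CPM in CV, 124, 126, 131 and 127 in ENR and 248, 224, 253 and 238 in EN. No 2 cultures overlapped. EN exceeded ENR 1.90-fold (log2 0.92 ± 0.05, edgeR, adjusted p = 1.8e-10) and CV 1.22-fold (log2 0.29 ± 0.05, edgeR, adjusted p = 7.3e-05), and CV exceeded ENR 1.55-fold (edgeR, adjusted p = 4.1e-08). The smaller difference between EN and CV turned to -0.03 with TPM and to -0.14 with spike-in scaling, neither past the threshold. With spike-in scaling the differences from ENR kept their sign, at 0.41 for EN and 0.55 for CV, but were not called.

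The list of bZIP factors, which includes Atf2 and Jund, held 48 genes, of which 15 were measured. Only transcripts with quantified protein were in the transcript table, so genes of any list without a row were not measured. From CV to EN 8 rose, 2 fell and 5 were not called, and from ENR to EN 8 rose and 1 fell, beside 35.2% higher and 41.2% lower, and 35.5% and 37.2%, of all transcripts. Spike-in scaling gave 5 higher and 3 lower from CV to EN and 2 of each from ENR to EN, TPM 7 and 5 and 7 and 2, and the deposited copies 10 and 13 higher with none lower. Creb3l3, a membrane-bound factor of liver and intestine that controls lipid genes, rose from 122 ± 1.98 to 877 ± 33.0 CPM (SD, n = 4, log2 2.84, edgeR, adjusted p = 4.8e-17). Cebpg, a C/EBP protein that pairs with other bZIP factors, rose from 93.8 ± 3.37 to 233 ± 14.4 CPM (log2 1.31). Jun, the founding AP-1 protein, fell from 56.0 ± 2.77 to 27.4 ± 3.35 CPM (log2 -1.02), and Creb1, a factor activated by cAMP, from 103 ± 3.46 to 66.7 ± 3.74 (log2 -0.63). With the deposited copies neither was called, and Creb1 turned to 0.11. The list's median log2 value was 0.29, which is the value of Jund itself, beside -0.08 over all transcripts. The median was -0.03 with TPM and -0.14 with spike-in scaling, again the values of Jund.

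Among 20 transcripts of the stress-activated kinase cascade, which acts on Atf2 and Jun proteins, 5 rose and 6 fell from CV to EN. Mapk8 (Jnk1) rose from 51.3 ± 1.71 to 125 ± 5.56 CPM (SD, n = 4, log2 1.29), and Map2k3, a kinase that activates p38, from 19.1 ± 1.77 to 38.4 ± 1.30 (log2 1.00). Mapk11 (p38 beta) fell from 25.2 ± 1.61 to 1.75 ± 0.375 CPM (log2 -3.84), and Zak, a kinase at the top of the cascade, from 37.7 ± 1.11 to 6.89 ± 1.45 (log2 -2.44) in the first of its 2 listed transcripts, NM_001164791.1. Of all transcripts, 35.2% rose and 41.2% fell. The direction of the count turned with the scaling, as 3 were higher and 9 lower with TPM, 2 and 7 with spike-in scaling and 11 and 3 with the deposited copies. The list's median was 0.08 by TMM and 0.82 with those copies.

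E2f4 fell in EN. Its level was 15.1, 16.3, 15.0 and 13.7 CPM in CV, 12.4, 11.9, 13.5 and 13.5 in ENR and 8.31, 7.92, 10.9 and 8.21 in EN. EN lay below both other cultures without overlap. The fall was 1.70-fold from CV (log2 -0.77 ± 0.12, edgeR, adjusted p = 1.7e-05) and 1.46-fold from ENR (log2 -0.54 ± 0.12, edgeR, adjusted p = 0.00059), while CV and ENR did not overlap but missed the threshold (log2 0.22 ± 0.11, edgeR, adjusted p = 0.080). These values rest on 37.0 to 122 counts per library. With TPM the difference between CV and ENR was 0.35 and was called. With the deposited copies the log2 value was -0.05 from CV to EN and turned to 0.45 from ENR to EN, neither past the threshold.

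The list of E2F, DP and pocket proteins with other G1 regulators held 24 measured genes. Of these 4 rose and 17 fell from CV to EN, beside 35.2% and 41.2% of all transcripts, with a median log2 value of -1.11, and 3 rose and 16 fell from ENR to EN, beside 35.5% and 37.2%. Ccnd1 (cyclin D1), which drives entry into the cycle, fell from 128 ± 2.15 to 7.41 ± 0.878 CPM (SD, n = 4, log2 -4.11, edgeR, adjusted p = 8.9e-17). Ccne1 (cyclin E1) measured 15.5 ± 1.56 CPM in CV, and its highest count in an EN library was 2, under the floor of 3 counts, so no fold is given. Tfdp1, a DP partner of E2F proteins, fell from 114 ± 1.89 to 38.0 ± 2.89 CPM (log2 -1.58). Tfdp2, the other DP partner, rose from 37.2 ± 2.92 to 99.7 ± 7.21 CPM (log2 1.43), and Rbl2 (p130), the pocket protein known to pair with E2f4 in resting cells, from 31.0 ± 1.64 to 53.5 ± 2.62 (log2 0.78). Rbl2 was not called with spike-in scaling. The proliferation markers moved with this list, as their summed levels above show. The list had 5 higher and 9 lower from CV to EN, and 9 higher and 10 lower from ENR to EN, with the deposited copies.

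Etv6 had the largest difference of the 8 transcripts between EN and either other culture by TMM, but not with the deposited copies, where Jund rose by 2.01 (log2) from ENR to EN. It measured 49.1, 48.7, 48.5 and 41.7 CPM in CV, 58.1, 62.7, 62.1 and 63.0 in ENR and 24.7, 20.3, 21.6 and 17.4 in EN. The cultures did not overlap, with ENR highest and EN lowest. Etv6 fell 2.92-fold from ENR to EN (log2 -1.54 ± 0.09, edgeR, adjusted p = 2.4e-10) and 2.23-fold from CV to EN (log2 -1.16 ± 0.09, edgeR, adjusted p = 8.9e-09), and was 1.31-fold lower in CV than in ENR (edgeR, adjusted p = 0.00046). With the deposited copies all 3 kept their sign but none was called, at -0.52, -0.41 and -0.10. The difference between CV and ENR was also not called with TPM (-0.22) or spike-in scaling (-0.49).

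Of 28 listed ETS factors, 10 were measured. Of these 10, 3 rose and 3 fell from CV to EN, and 2 rose and 6 fell from ENR to EN, beside 35.2% and 41.2% of all transcripts in the former comparison and 35.5% and 37.2% in the latter. With the deposited copies 6 were higher and none lower from CV to EN and 5 higher and 1 lower from ENR to EN, and with spike-in scaling none was higher and 3 and 8 were lower, so these counts have no direction that holds across scalings. Ehf, an ETS factor of epithelia, fell from 287 ± 7.54 to 110 ± 13.6 CPM from CV to EN (SD, n = 4, log2 -1.38, edgeR, adjusted p = 1.3e-11). Elf3, another epithelial member, fell from 112 ± 10.2 to 88.0 ± 4.36 CPM (log2 -0.34), and turned to 0.47 with the deposited copies. Neither was called with those copies. Etv3, a repressor, rose from 48.0 ± 3.25 to 87.7 ± 4.43 CPM (log2 0.87), and Gabpa, the DNA-binding part of GABP, from 61.4 ± 3.22 to 93.7 ± 8.09 (log2 0.61). Both rises were not called with spike-in scaling. The list's median was 0.02 from CV to EN, near that of all transcripts.

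Nfkb1 was highest in ENR. Its level was 76.4, 76.7, 74.5 and 79.3 CPM in CV, 128, 123, 123 and 123 in ENR and 109, 101, 96.7 and 104 in EN. All 3 cultures were apart. Nfkb1 was 1.34-fold higher in EN than in CV (log2 0.42 ± 0.04, edgeR, adjusted p = 2.9e-07), 1.21-fold lower in EN than in ENR (log2 -0.27 ± 0.04, edgeR, adjusted p = 3e-05) and 1.62-fold lower in CV than in ENR (edgeR, adjusted p = 1.8e-09). With the deposited copies EN exceeded ENR, at a log2 value of 0.73 that was called, and with spike-in scaling EN and CV differed by 0.01 without a call, as did the 0.10 found with TPM.

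The NF-kB list had 26 measured members, of which 16 rose and 3 fell from CV to EN and 14 rose and 3 fell from ENR to EN, beside 35.2% and 41.2%, and 35.5% and 37.2%, of all transcripts. Ikbke, a kinase of innate immune signalling, rose from 27.2 ± 3.65 to 96.1 ± 4.23 CPM from CV to EN (SD, n = 4, log2 1.82, edgeR, adjusted p = 7.5e-12). Relb, a subunit of the alternative pathway, rose from 32.8 ± 2.24 to 76.3 ± 3.97 CPM (log2 1.21). Ikbkb, the kinase that releases NF-kB from its inhibitor, fell from 56.5 ± 2.71 to 31.0 ± 1.61 CPM (log2 -0.87), and Traf6, an adaptor of receptor signalling, from 35.7 ± 2.27 to 23.7 ± 3.03 (log2 -0.58). Traf6 turned to 0.11 with the deposited copies and was then not called, as was Ikbkb. Spike-in scaling left 3 of the list higher and 4 lower from CV to EN and 1 higher and 6 lower from ENR to EN, while the deposited copies gave 20 higher and 24 higher with none lower. The median from CV to EN, 0.34 by TMM, was -0.09 with spike-in scaling.

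Sp1 followed the same order of cultures as Nfkb1. It measured 90.4, 80.5, 90.8 and 90.0 CPM in CV, 138, 140, 142 and 131 in ENR and 100, 96.6, 110 and 110 in EN. No 2 cultures overlapped. Sp1 was 1.19-fold higher in EN than in CV (log2 0.25 ± 0.05, edgeR, adjusted p = 0.00065), 1.32-fold lower in EN than in ENR (log2 -0.40 ± 0.05, edgeR, adjusted p = 4.7e-06) and 1.57-fold lower in CV than in ENR (edgeR, adjusted p = 3.9e-08). The difference between EN and CV turned to -0.07 with TPM and -0.17 with spike-in scaling, and that between EN and ENR to 0.60 with the deposited copies, none of them called.

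Of 26 listed Sp and Klf factors, which share a zinc finger domain and bind GC-rich DNA, 8 were measured. From CV to EN 6 rose and none fell by edgeR (DESeq2 also called 6 and 0), beside 35.2% higher and 41.2% lower of all transcripts. TPM gave 5 higher and 1 lower. Between ENR and EN 4 rose and 1 fell, beside 35.5% and 37.2% of all transcripts. That count was 1 higher and 2 lower with spike-in scaling and 7 higher with the deposited copies. Klf4, a factor known to restrain proliferation in the gut, rose from 8.65 ± 1.32 to 24.5 ± 2.38 CPM (SD, n = 4, log2 1.50, edgeR, adjusted p = 4e-08), and Klf6 from 91.8 ± 7.48 to 212 ± 13.0 (log2 1.21). The median of the list was 0.74. It was 0.33 with spike-in scaling, which left 3 higher.

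Lcor rose from CV through ENR to EN. Its transcript XM_006526850.3 measured 182, 184, 184 and 185 CPM in CV, 222, 231, 224 and 208 in ENR and 256, 251, 270 and 257 in EN. The cultures did not overlap. EN exceeded CV 1.41-fold (log2 0.49 ± 0.04, edgeR, adjusted p = 6.1e-09) and ENR 1.17-fold (log2 0.23 ± 0.04, edgeR, adjusted p = 4.3e-05). With spike-in scaling the value from ENR to EN turned to -0.29 and was not called, nor was the 0.07 then found from CV to EN. With TPM it was 0.07 from ENR to EN, not called, and 0.17 from CV to EN, called.

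The second transcript of Lcor, XM_011247218.1, shares sequence with the first, so reads were divided between them by estimate. It measured 31.4, 22.3, 30.5 and 24.1 CPM in CV, 32.3, 30.6, 27.9 and 28.9 in ENR and 42.1, 47.1, 35.1 and 37.6 in EN. EN lay above both other cultures, which overlapped. The log2 fold change was 0.58 ± 0.11 from CV to EN (edgeR, adjusted p = 0.00023) and 0.43 ± 0.11 from ENR to EN (edgeR, adjusted p = 0.0028). Without EN replicate 2 the latter was 0.36 and was no longer called (edgeR, adjusted p = 0.011), and with spike-in scaling it turned to -0.09. Neither difference was called with TPM or spike-in scaling. Both transcripts summed, an alternative chosen after seeing the data, gave 211 ± 3.53 CPM in CV, 251 ± 10.3 in ENR and 299 ± 4.21 in EN (SD, n = 4, log2 0.51 ± 0.04 from CV to EN).

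Among 18 transcripts of nuclear receptor corepressors, 9 rose and 6 fell from CV to EN, and 7 rose and 9 fell from ENR to EN, beside 35.2% and 41.2%, and 35.5% and 37.2%, of all transcripts. The counts turned with the scaling, to 2 higher and 7 lower and 0 and 9 with spike-in scaling and to 10 and 1 and 11 and 1 with the deposited copies. Both called rises named by size belong to Ncor1, a scaffold that recruits histone deacetylases, at 42.1 ± 4.43 to 104 ± 10.6 CPM for XM_017314369.1 and 79.3 ± 4.44 to 179 ± 16.8 for XM_017314377.1 (SD, n = 4, log2 1.30 and 1.18), between which reads were divided by estimate. Rcor2, a partner of the demethylase Kdm1a, fell from 35.6 ± 2.42 to 2.85 ± 0.959 CPM (log2 -3.59), and Hdac3, the deacetylase of the Ncor1 complex, from 161 ± 5.95 to 96.6 ± 7.15 (log2 -0.75). Hdac3 was at 0.03 with the deposited copies and not called. The list's median was 0.22, and -0.20 with spike-in scaling.

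Of the other 5 factors named in the same motif ranking, 3 rose and 2 fell from CV to EN, beside 35.2% and 41.2% of all transcripts. Hnf4g, a nuclear receptor of enterocytes, rose from 122 ± 5.03 to 1406 ± 105 CPM (SD, n = 4, log2 3.52, edgeR, adjusted p = 5.1e-17). Zbtb7b rose from 81.0 ± 8.08 to 174 ± 8.93 CPM (log2 1.10) and Zbtb7a from 26.2 ± 2.75 to 52.7 ± 3.79 (log2 1.01). Foxa2, a forkhead factor of gut endoderm, fell from 11.7 ± 0.540 to 4.49 ± 0.197 CPM (log2 -1.38), and was -0.58 and not called with the deposited copies. Tfdp1, given above, was the remaining factor.

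Levels of different factors can be compared only per transcript length, as TPM. Jund was highest in every culture, at 114 ± 8.79 TPM in CV, 66.1 ± 1.57 in ENR and 112 ± 6.78 in EN (SD, n = 4), which placed it at the 81.2 to 88.0 percentile of all transcripts. Nfkb1 came next with 30.6 ± 1.03, 44.3 ± 0.875 and 32.8 ± 2.19 TPM, then Lcor XM_006526850.3 with 28.4 ± 0.335, 30.7 ± 1.32 and 32.2 ± 0.946, then Sp1 with 18.1 ± 1.08, 25.5 ± 0.882 and 17.2 ± 1.06. Below these stood Atf2 at 15.6 ± 1.03, 13.1 ± 0.945 and 11.8 ± 0.766 TPM, Etv6 at 13.8 ± 0.953, 16.1 ± 0.603 and 4.95 ± 0.764, and E2f4 at 12.8 ± 0.811, 9.84 ± 0.613 and 6.04 ± 0.920. Lcor XM_011247218.1 was lowest in all 3 cultures, at 2.82, 2.80 and 3.39 TPM. Neighbours in this order overlapped for Sp1, Atf2, Etv6 and E2f4 in CV and for Nfkb1 with Lcor and E2f4 with Etv6 in EN, and no neighbours overlapped in ENR.

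For each transcript, the 2 transcripts of other genes with the closest profile over the 12 libraries were found among 8975 transcripts, by the root mean square difference of log2 CPM centred on the transcript's own mean. Jund was closest to Tmem54 (difference 0.039) and Gmppa (0.056), against a median of 0.57 over all transcripts. Etv6 was closest to Lsm8 (0.100) and Srsf3 (0.113), which act in RNA splicing, and Nfkb1 to Rbm5 (0.040) and Hnrnpul1 (0.058), which bind RNA. Sp1 was closest to Nadk2 (0.067) and to Kdm5a (0.075), a demethylase of H3K4. E2f4 stood nearest to Aim2 (0.073) and Lyrm9 (0.101), Lcor XM_006526850.3 to Skil (0.045) and Cdk13 (0.052), Lcor XM_011247218.1 to Gigyf2 (0.131) and Hook3 (0.131), and Atf2 to Xrcc4 (0.072) and Exoc7 (0.077). These profiles are shared orders of cultures over the same libraries and nothing more was tested.

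Chromatin at the start sites was read from the regions of open chromatin or histone marks that lie within 500 bp of an annotated start, 1 region for each factor. ATAC-seq marks open DNA, H3K27ac active promoters and enhancers, H3K4me3 promoters, and H3K27me3 regions held silent by Polycomb. Scores are read counts per region that the authors normalized and rounded, and the 3 cultures were compared in limma by a moderated F test after log2(score + 1). The median region moved by 0.05 (log2) from CV to EN in ATAC-seq, -0.14 in H3K27ac and 0.13 in H3K4me3. Summed ATAC scores were 1752385 to 1840402 in CV and 1993594 to 2109261 in EN. H3K27ac scores summed to 1345873 to 1406651 and 1622103 to 1760511, and H3K4me3 scores to 817265 to 940440 and 984840 to 1100967. Sums were thus greater in EN in each, also in H3K27ac, where the median region fell. The part of this general shift in the differences at single regions was not tested. Regions of Atf2 and Jund also lie within 500 bp of the start of Gm10822 and Gm11175, so their signal cannot be given to 1 gene.

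Open chromatin differed at 3 of the 7 start sites, those of Sp1, Atf2 and Nfkb1, and was lowest in CV at each. Of all 94166 regions tested, 26.9% were called, and of regions at start sites 23.6%. At Sp1 (chr15:102235669-102237429, mm9), whose promoter with 4 GC boxes is printed above, the score was 363, 416, 350 and 417 in CV, 645, 595, 471 and 493 in ENR and 608, 547, 562 and 564 in EN. CV lay below both other cultures, which overlapped, and EN exceeded CV by 0.56 ± 0.09 (log2, SE, limma, adjusted p = 0.00015). At Atf2 (chr2:73729661-73731623) the score was 166, 163, 141 and 141 in CV, 191, 186, 186 and 174 in ENR and 221, 214, 247 and 225 in EN, all apart, with EN above CV by 0.57 ± 0.09 (limma, adjusted p = 0.0002). At Nfkb1 (chr3:135353447-135354853) it was 44, 42, 35 and 32 in CV, 45, 69, 68 and 75 in ENR and 76, 80, 69 and 86 in EN, where CV lay lowest and ENR overlapped EN. EN exceeded CV by 1.01 ± 0.16 (limma, adjusted p = 0.00019). After quantile normalization only Nfkb1 of these remained called, and without modelling the spread as a function of the mean (a trend) likewise only Nfkb1.

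The start sites of E2f4, Etv6, Jund and Lcor did not pass the test in ATAC-seq. Mean scores in CV, ENR and EN were 32.5, 39.3 and 32.3 at E2f4 (chr8:107821415-107823161), 161, 171 and 140 at Etv6 (chr6:133984761-133986851), 232, 215 and 212 at Jund (chr8:73222265-73224983) and 109, 99.8 and 111 at Lcor (chr19:41556572-41558631). Differences from CV to EN were -0.03 ± 0.19, -0.21 ± 0.13, -0.14 ± 0.13 and 0.01 ± 0.13 (log2, SE). The fall of Etv6 and E2f4 RNA in EN thus stood beside start sites whose openness had not passed the test, and Atf2, with no called change in RNA, had a called one in ATAC-seq.

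**Figure D3:**
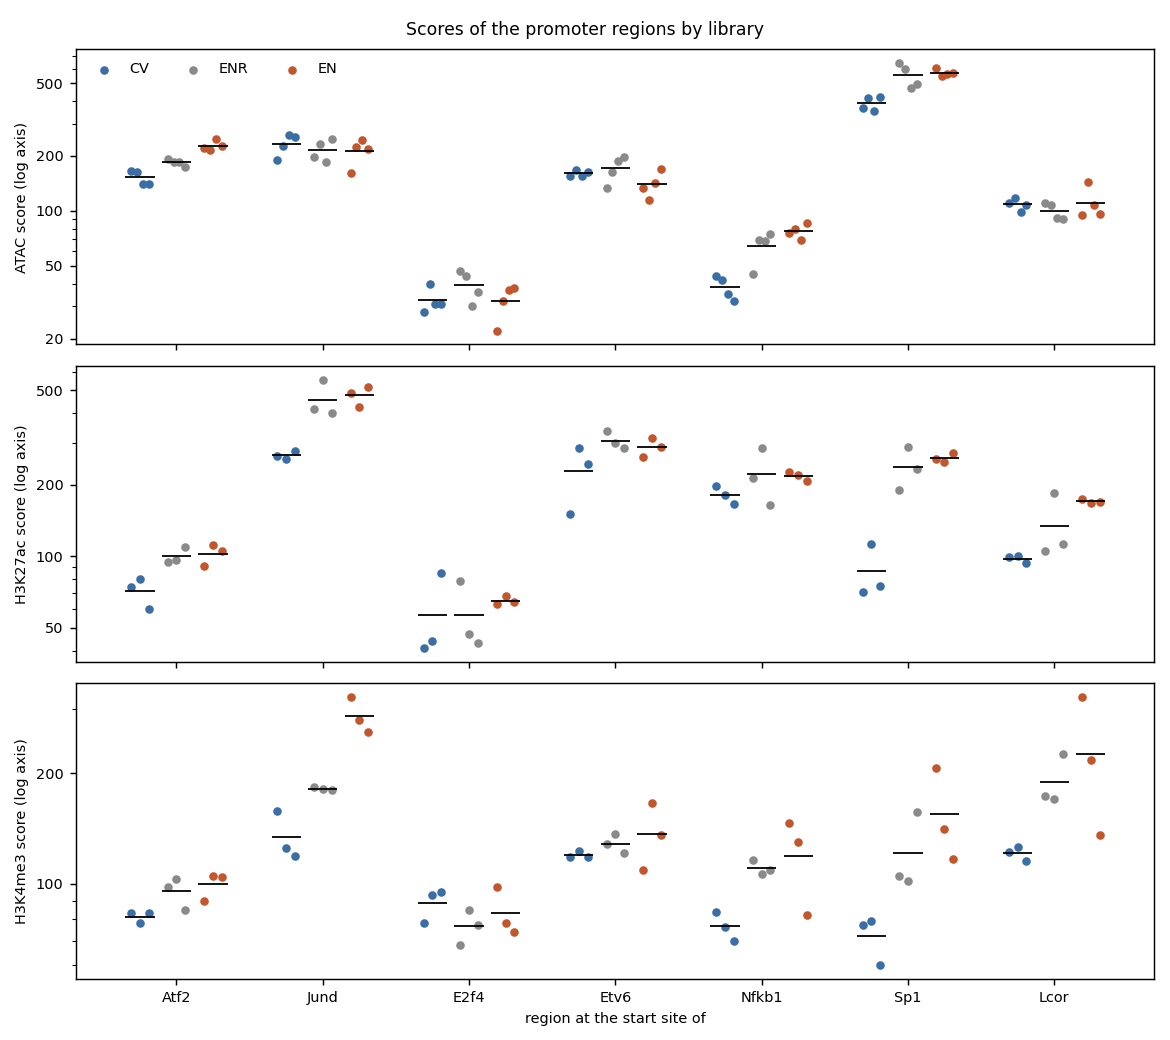
Score of the region at each factor's start site (vertical axis, log scale) in ATAC-seq, H3K27ac and H3K4me3, by culture. Points are libraries, 4 per culture for ATAC-seq and 3 for each mark, and bars are means. CV lies below the other cultures at Sp1 and Atf2 in ATAC-seq and at Sp1 and Jund in H3K27ac, and EN lies above both at Jund in H3K4me3.

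H3K27ac differed at 2 of the 7 start sites, Sp1 and Jund, against 2.93% of all regions tested and 10.2% of those at start sites. The Sp1 score was 71, 113 and 75 in CV, 190, 289 and 234 in ENR and 256, 249 and 272 in EN. CV lay below the others, and EN exceeded it by 1.60 ± 0.20 (log2, SE, limma, adjusted p = 2e-06). The Jund score was 265, 258 and 277 in CV, 418, 554 and 401 in ENR and 488, 424 and 519 in EN, again lowest in CV, with EN above by 0.83 ± 0.13 (limma, adjusted p = 4.9e-05). Jund RNA, in contrast, was lowest in ENR, where its H3K27ac scores overlapped those of EN. Neither region was called without the trend, a setting that called 0 regions in the whole table, nor with the replicate number as a block (limma, adjusted p = 0.28 for each), which also called 0, and Jund was not called after quantile normalization. Lcor had 97.7 ± 3.21 in CV and 170 ± 4.16 in EN (SD, n = 3) and did not pass (limma, adjusted p = 0.065).

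H3K4me3 differed at 1 start site, Jund, against 2.35% of all regions and 1.93% of those at start sites. The score was 158, 125 and 119 in CV, 184, 181 and 180 in ENR and 323, 279 and 259 in EN. All cultures were apart in the order CV, ENR, EN, and EN exceeded CV by 1.10 ± 0.12 (log2, SE, limma, adjusted p = 0.0043). The call was lost when any library but CV replicate 2 was left out, at an adjusted p between 0.014 and 0.032 by limma. It was also lost with the replicate number as a block (limma, adjusted p = 0.066), without a trend (0.017), after quantile normalization (0.15) and at the study's threshold, which left 0 regions called in the whole table. This region is 2718 bp long and covers most of the gene body of Jund (chr8:73221638-73224515). Sp1 had 72.0 ± 10.4 in CV and 155 ± 46.6 in EN (SD, n = 3) without a call (limma, adjusted p = 0.081).

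H3K27me3 differed at none of the 7 start sites by limma, with 0.330% of all regions called and 0 of the 7 at an unadjusted p under 0.05, with or without the trend. Mean scores there ran from 2.33 to 17.0.

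Beyond the start sites, the gene bodies with 10 kb on either side held 62 further regions, of which 18 were called in ATAC-seq, near the 26.9% of all regions, 1 in H3K27ac, where 2.93% of all were, and none in H3K4me3 or H3K27me3 by limma (15 of 51 and 8 of 62 at an unadjusted p under 0.05). The share of all regions under that unadjusted threshold was not counted, so such counts have no background here and nothing is read from them. In ATAC-seq the mean fell from CV to EN in 13 of the 18 and was greater in EN in 5. How the called regions of the whole series divide by direction was not counted, so nothing is read from this split. Etv6 held 11 of the 18, Nfkb1 3, E2f4 2, and Atf2 and Jund 1 each. Neighbouring genes lie within some of these windows, so a region is placed by position only.

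Etv6, a gene of 234459 bp on chromosome 6, had 36 regions beyond its start site, most of them in introns. Of these, 11 were called, a share near the 26.9% of all regions. Among the 11, 8 were lower and 3 higher in EN than in CV, a split that likewise has no background here. The region of lowest p (chr6:134097876-134098329, mm9, intron) scored 79, 78, 61 and 66 in CV, 77, 79, 87 and 90 in ENR and 36, 42, 32 and 39 in EN. EN lay below both other cultures, by 0.91 ± 0.13 from CV (log2, SE, limma, adjusted p = 4.9e-06). A second intronic region (chr6:134140675-134141265) had 23, 27, 29 and 25 in CV, 16, 14, 31 and 33 in ENR and 2, 4, 8 and 4 in EN, a fall of 2.40 ± 0.31 (limma, adjusted p = 1.2e-05). Against these, an intronic region at chr6:134104903-134105238 had 2, 3, 3 and 2 in CV, 1, 1, 3 and 2 in ENR and 7, 13, 9 and 17 in EN, higher in EN than in CV by 1.78 ± 0.33 (limma, adjusted p = 9.4e-05). The latter 2 are named for the size of their difference, after their values were seen.

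**Figure D4:**
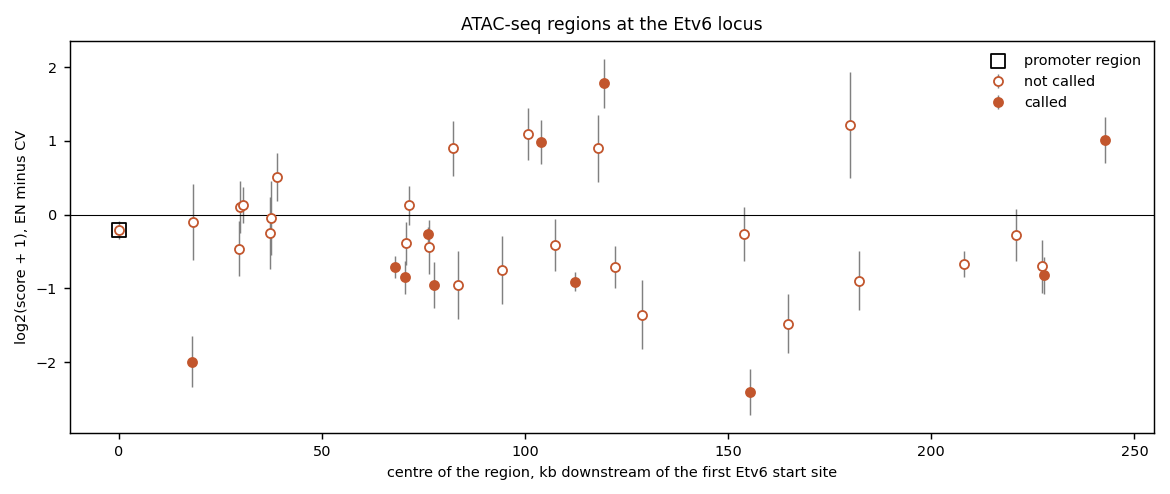
Difference between EN and CV in ATAC-seq (vertical axis, log2(score + 1), error bars are the SE) for the 37 regions of the Etv6 locus, by distance of the region's centre from the first Etv6 start site (horizontal axis, kb). Filled points passed the test over the 3 cultures, 8 below and 3 above 0, and the square marks the start site region, at -0.21.

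A pair of these Etv6 regions is printed as the 300 bases at their centre (mm9, plus strand), the region of lowest p with an AP-1 match in capitals and a region that opened in EN with an Hnf4 match in capitals. The second was chosen after its letters were seen.
Etv6 intron, chr6:134097953-134098252: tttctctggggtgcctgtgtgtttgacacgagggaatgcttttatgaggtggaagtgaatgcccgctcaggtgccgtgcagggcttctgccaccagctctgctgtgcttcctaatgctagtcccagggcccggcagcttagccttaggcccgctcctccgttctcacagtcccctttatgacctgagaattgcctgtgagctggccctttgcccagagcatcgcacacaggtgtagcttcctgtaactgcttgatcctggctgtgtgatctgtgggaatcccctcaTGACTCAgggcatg
Etv6 intron, chr6:134089413-134089712: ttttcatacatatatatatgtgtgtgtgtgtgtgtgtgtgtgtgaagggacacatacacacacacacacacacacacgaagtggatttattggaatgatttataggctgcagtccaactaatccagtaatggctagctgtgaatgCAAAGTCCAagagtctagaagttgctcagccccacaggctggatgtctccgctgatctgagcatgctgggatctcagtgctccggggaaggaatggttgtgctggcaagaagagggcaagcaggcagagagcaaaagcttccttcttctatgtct
AP-1 letters were present in 17.2% and Hnf4 letters in 2.28% of the same windows of 94334 regions. Among the 11 called Etv6 regions, 2 held AP-1 letters, 2 NF-kB letters (GGGANTTTC, 1.20% of windows) and 1 Hnf4 letters. The region with Hnf4 letters had ATAC scores of 7, 9, 5 and 10 in CV, 4, 9, 10 and 4 in ENR and 14, 16, 14 and 20 in EN, with EN above CV by 0.98 ± 0.30 (log2, SE, limma, adjusted p = 0.0062). This call was lost when any of 6 of the 12 libraries was left out, CV replicate 1, ENR replicates 1 and 4 or EN replicates 2, 3 and 4, at an adjusted p of 0.010 to 0.029 by limma, and also after quantile normalization or without a trend. A match of letters describes the sequence and does not show that a factor was bound.

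At Nfkb1, 3 regions near each other in an intron were called in ATAC-seq, 2 higher and 1 lower in EN than in CV. The region chr3:135338301-135338982 rose in ATAC-seq from 39, 43, 40 and 43 in CV and 47, 50, 62 and 66 in ENR to 85, 62, 93 and 117 in EN, by 1.06 ± 0.17 from CV (log2, SE, limma, adjusted p = 0.00023). The same region was the only 1 of the 62 called in H3K27ac, at 40, 23 and 64 in CV, 60, 39 and 42 in ENR and 135, 105 and 126 in EN (1.61 ± 0.34, limma, adjusted p = 0.0033). This H3K27ac call was lost without ENR replicate 2 or 4, or without EN replicate 2, 3 or 4, at an adjusted p of 0.012 to 0.075 by limma, and also with the replicate number as a block (limma, adjusted p = 0.28), without a trend (0.14) or after quantile normalization (0.036). The adjacent region chr3:135337669-135338278 rose in ATAC-seq by 0.42 ± 0.11, a call lost without EN replicate 2 or 4, after quantile normalization or without a trend, and a small one at chr3:135336733-135336850 fell by 1.31 ± 0.36.

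Upstream of Jund, a region 2094 bp from the nearest start (chr8:73219385-73219544) had 12, 12, 12 and 9 in CV, 15, 16, 11 and 11 in ENR and 1, 2, 2 and 2 in EN. EN lay below both cultures, by 2.17 ± 0.25 from CV (log2, SE, limma, adjusted p = 1.2e-06), while Jund RNA was higher in EN. An Atf2 intron (chr2:73698224-73698536) had 20, 23, 28 and 25 in CV, 14, 6, 11 and 14 in ENR and 13, 4, 7 and 9 in EN, lower in EN by 1.52 ± 0.30 (limma, adjusted p = 0.0014), the opposite direction to its start site. Upstream of E2f4, the region chr8:107812882-107814006 had 125, 128, 147 and 138 in CV and 97, 95, 81 and 92 in EN, lower by 0.56 ± 0.11 (limma, adjusted p = 0.0012, not called without a trend), and it lies at the start of the neighbouring gene 4931428F04Rik. At Sp1 and Lcor none of the 4 and 5 further regions was called by limma, with 1 and 0 at an unadjusted p under 0.05.

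Hnf4g, the factor that rose most among those ranked by motif, was read at the same start sites in 1 library per culture, so there is no test. The libraries held 84340, 352600 and 1816497 reads in regions in CV, ENR and EN, and exact Poisson 95% intervals cover counting error only. A share of reads does not measure how much Hnf4g was bound. The study reported Hnf4g binding as nearly absent in CV, so reads there may be background, which was not tested. Sp1 had 34, 132 and 385 reads, which is 403 RPM (reads-per-million of those within regions) in CV (279 to 563), 374 in ENR (313 to 444) and 212 in EN (191 to 234). Jund had 13, 49 and 395 reads, or 154 (82.1 to 264), 139 (103 to 184) and 217 RPM (197 to 240). Lcor had 22, 73 and 403 reads, or 261 (163 to 395), 207 (162 to 260) and 222 RPM (201 to 245).

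Fewer reads lay at the other start sites. Nfkb1 had 0, 10 and 158 reads, which is 0 RPM in CV (interval 0 to 43.7), 28.4 (13.6 to 52.2) in ENR and 87.0 (73.9 to 102) in EN. Etv6 had 4, 18 and 204 reads, or 47.4 (12.9 to 121), 51.0 (30.3 to 80.7) and 112 RPM (97.4 to 129). Atf2 had 0, 2 and 70 reads and E2f4 0, 0 and 51, with EN at 38.5 (30.0 to 48.7) and 28.1 RPM (20.9 to 36.9). The share of reads in EN was thus above that in ENR, beyond counting error, at Jund, E2f4, Etv6, Nfkb1 and Atf2 and below it at Sp1, while Lcor overlapped. The Etv6 intron with Hnf4 letters held 0, 0 and 31 reads, or 17.1 RPM in EN (11.6 to 24.2), beside 0 RPM in CV (0 to 43.7) and ENR (0 to 10.5). The floor of 3 counts used here corresponds to 35.6 RPM in CV and 8.51 RPM in ENR. Depth and the share of reads at start sites in general differed between these 3 libraries, and their part was not tested.

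**Figure D5:**
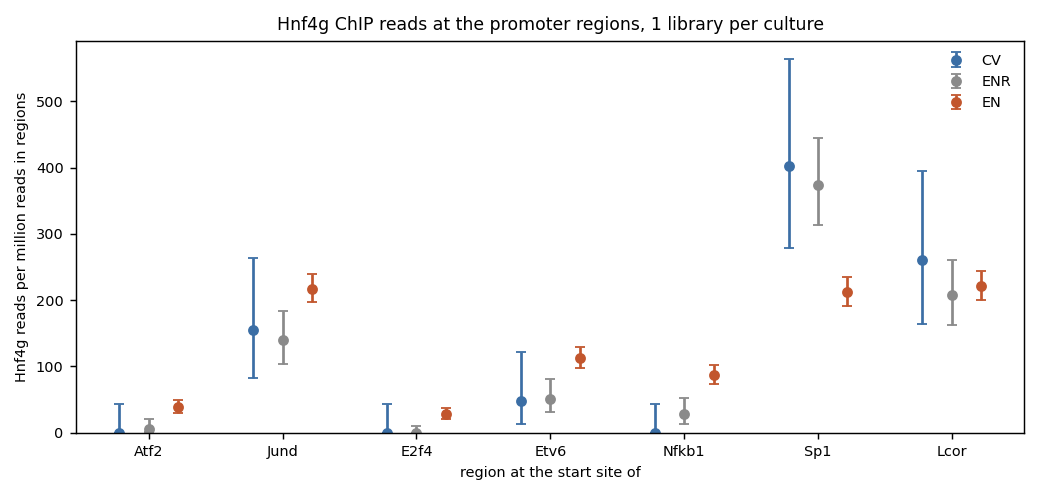
Share of Hnf4g reads (vertical axis, RPM within regions) at the start site region of each factor in the single CV, ENR and EN library, with exact Poisson 95% intervals as error bars. Intervals are widest in CV, whose library is the smallest, and Sp1 is the factor whose EN value, 212, lies below both other cultures.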

How the data were processed

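Per the labels and the study's methods, the authors estimated expected counts and TPM per RefSeq transcript with kallisto (0.43.0 in the labels) on an index limited to transcripts with quantified protein, and scaled a copy number signal, mRNA copies, to spike-in RNA added at rRNA depletion. For chromatin, the authors aligned reads to mm9 with BWA, removed duplicates with Picard, called peaks with MACS2 2.0 and deposited a normalized, rounded score for each region of their merged peaks. For Hnf4g they deposited raw counts of reads per region, with 1 library per culture.

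Expected counts were rounded and tested in edgeR 4.0.16 (quasi-likelihood test, TMM, all 12 libraries in 1 fit). A transcript needed nonzero counts in 4 or more of the 12 libraries, which 9288 of 9481 had, and was called at a Benjamini-Hochberg adjusted p under 0.01. Scores were tested with limma 3.58.1 (moderated F test over 3 cultures, log2(score + 1), trend) in regions above 0 in at least 3 libraries, at the same threshold. Alternatives were DESeq2 1.42.0 and other scalings, filters, pseudocounts and thresholds, and leaving out each library. Both tests were run first on simulated data.

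Named beside the factors were the 2 largest called rises and falls of each list from CV to EN without overlap, all other factors of the motif ranking, the 2 nearest profiles, and the called region of lowest p per factor and dataset. A list could hold the factor it stands beside, which was then counted in it but not named from it. Members and lists were chosen with earlier results of these data known. Region coordinates are printed as deposited. Promoters are those of RefSeq (GRCm38.p6), start sites those of GENCODE on mm9. Hnf4g knockout RNA-seq was not analysed here, and 10 histone libraries of the labels were not used here.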

Additional observations from a re-analysis of the deposited data

Results flagged for a closer look

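Of 45 groups of 4 libraries examined, 4 held a library set apart from the other 3 by more than Dixon's 95% critical value of the gap over the group's range, where chance gives about 1 group in 20. For E2f4, EN replicate 3 stood at 10.9 CPM, above the other EN libraries (gap 0.869 of the range). For Etv6, CV replicate 4 stood at 41.7 CPM, below the other CV libraries (0.926). For Nfkb1, ENR replicate 1 stood at 127.9 CPM, above the other ENR libraries (0.875). For Sp1, CV replicate 2 stood at 80.5 CPM, below the other CV libraries (0.923). Each of the called differences of these 4 transcripts kept its sign and its call when any single library was left out.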

How the results depend on the processing

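Counts of changed transcripts among the 8 stayed at 7 from CV to EN, 7 from ENR to EN and 5 from ENR to CV with DESeq2, RLE size factors, other count filters, the 2 cultures compared alone, a threshold of 0.05 and the replicate number as a block. From CV to EN, TPM + 1 and TPM + 5 called 4 and 4 and spike-in scaling 2. From ENR to EN spike-in scaling called 4, and from ENR to CV the deposited copies called 1 and spike-in scaling 2. Directions moved as well. The deposited copies called 5 higher and 0 lower in EN against CV and also against ENR, beside 5 and 2 and 3 and 4 by TMM. TPM + 1 called 1 higher and 4 lower from ENR to EN. From ENR to CV it called 3 higher and 2 lower, beside 1 and 4 by TMM. Leaving out 1 library gave 7 to 7, 6 to 7 and 5 to 5.

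Signs of log2 fold changes turned as follows. From CV to EN, Atf2 turned to 0.65 with the deposited copies, Jund to -0.029, -0.028 and -0.14 and Sp1 to -0.067, -0.055 and -0.17 with TPM + 1, TPM + 5 and spike-in scaling. From ENR to EN, Atf2 turned to -0.14, -0.10 and -0.50 in the same settings and ranged from -0.028 to 0.050 without 1 library, E2f4, Nfkb1 and Sp1 turned to 0.45, 0.73 and 0.60 with the deposited copies, and the Lcor transcripts to -0.29 and -0.085 with spike-in scaling. From ENR to CV, Lcor XM_011247218.1 turned to 0.0006, 0.0021 and 0.16 with TPM + 1, TPM + 5 and the deposited copies. Of the list counts, 29 moved by over 1.5 times outside the left-out libraries.

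At start sites, ATAC-seq calls went from 3 to 1 without a trend, 1 after quantile normalization and 0 at the study's threshold, H3K27ac calls from 2 to 0 without a trend, 0 with the block and 1 after quantile normalization, and the H3K4me3 call to 0 in each of these and at the study's threshold. Over whole loci, start sites included, ATAC-seq calls went from 21 to 2 at the study's threshold, H3K27ac calls from 3 to 0, 0 and 1 in the same settings and to 6 at 0.05, and the H3K4me3 call to 0 in the 4 settings. Without 1 library, loci gave 19 to 23, 2 to 3 and 0 to 3 calls, and H3K4me3 start sites 0 to 1. Score differences that turned sign, none of them called, were Lcor in ATAC-seq (-0.20 by quantile normalization, -0.12 to 0.077 without 1 library), E2f4 in ATAC-seq (-0.12 to 0.14 without 1 library), E2f4, Etv6 and Nfkb1 in H3K27ac (-0.058, -0.35 and -0.46 by quantile normalization), Etv6 in H3K4me3 (-0.33, likewise) and Lcor in H3K27me3 (-0.57 with the block, -0.26 to 0.77 without 1 library). Except for scaling and fewer libraries, the cause was not tested.

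By the labels, libraries share only a number. Deviations of same-numbered libraries correlated at -0.08 to 0.11 in RNA, 0.07 to 0.46 in ATAC-seq and -0.05 to 0.04 in H3K27ac. In H3K4me3 the range was -0.08 to 0.13 and in H3K27me3 -0.04 to 0.02. In ATAC-seq these pairs averaged 0.17, while pairs of different numbers averaged -0.06 and ran from -0.45 to 0.21. ATAC-seq libraries of the same number were thus more alike, which the main test did not use. The block was run as an alternative. With it ATAC-seq had 3 calls at start sites and 22 over loci. Summing both Lcor transcripts was chosen after seeing the data. A fit on all deposited libraries was not run. Depth limits E2f4 most among the 8 transcripts, and Hnf4g counts rest on 1 library per culture.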
